A study of Mus musculus with 8 samples.

Results

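The genes described here are 33 genes of astrocytes: 19 that astrocytes of the healthy brain express for their daily work, called homeostatic below, and 14 that rise when astrocytes become reactive. They were chosen by symbol, and each was read from its brightest probe set. Of the 33, 31 were listed in the array's probe table, out of 19505 genes listed in all. Glul, the glutamine synthetase of the homeostatic group, and Ggta1, a galactosyltransferase of the reactive group, were not matched and are not analysed here. Of the 31, 29 passed a filter that dropped the dimmest 25% of genes, judged by the mean of the 8 mice: 18 homeostatic and 11 reactive. Timp1 and Gbp2, both reactive, lay below it.

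The study compared hippocampi of mice with impaired memory and mice with intact memory. The animals of both groups are labelled B6.Cg-Tg(APPswe)E1-2Dbo/J, and their transgene codes for a mutant form of the amyloid precursor protein. Both groups were 18 to 20 months old. Both were taken after the Morris water maze, a swimming test of spatial memory, and the labels put 4 biological replicates in the impaired and 4 in the intact group, with 1 array each. Each is called a mouse here; whether tissue of several animals was pooled is not stated in the labels. The labels give neither the sex of the mice nor the promoter of the transgene, and mice without the transgene and the maze scores themselves were not analysed here. The signal is on the log2 scale, so that a difference of 1 is a doubling, and every difference below is the impaired mean minus the intact mean.

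Astrocytes clear glutamate and potassium from around synapses, wrap blood vessels with endfeet, share ions and metabolites through gap junctions and feed neurons from glycogen and glucose. In injury, inflammation and around amyloid plaques they become reactive: they enlarge, build more intermediate filaments and secrete protease inhibitors and acute-phase proteins. Sets of reactive genes were first defined in mice after ischaemia or endotoxin. Some rise after either insult (pan-reactive), some mainly after endotoxin (called A1) and some mainly after ischaemia (called A2), and many of them are also expressed by microglia, vessels or fibroblasts.

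No astrocyte gene passed the test between the groups. Among all 14628 genes tested, 0 had an adjusted p under 0.05 (limma with Benjamini-Hochberg adjustment, 0.0%), whereas 685 had an unadjusted p under 0.05, or 4.68%. Of the 29 astrocyte genes, 3 had such an unadjusted p: the gap junction gene Gjb6, the glypican Gpc5 and the metalloreductase Steap4, all with the higher mean in the impaired mice. Over all genes, 2.17% had an unadjusted p under 0.05 with the impaired mean higher. The count of 3 was 0 when impaired mouse 3 was left out, and 1 when impaired mouse 2, intact mouse 1 or intact mouse 3 was. The adjusted p of the 29 genes ran from 0.961 to 0.997. For none of them were the 4 impaired values fully separate from the 4 intact values, against 2.58% of all genes.

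The homeostatic genes centred near 0, the reactive ones above it. The median difference of the 18 homeostatic genes was -0.0015, with 9 higher and 9 lower in the impaired mice, beside a median of -0.0083 over all genes tested. That of the 11 reactive genes was 0.17, with 9 higher and 2 lower, where 47.1% of all genes were higher. The reactive median depended on single mice: it was 0.0086 without impaired mouse 3, 0.061 without intact mouse 3 and 0.087 without impaired mouse 4. With the mean deviations of thalamus and choroid plexus markers in each mouse as covariates (called the tissue scores) it was 0.025. The difference between the homeostatic and the reactive median was not tested. Both lists were chosen with earlier results of these data known, so these counts and medians only describe them. Other lists were one-sided as well. All 8 thalamus markers were higher, with a median of 0.32. All 8 choroid plexus markers were lower, with a median of -0.57, and all 7 oligodendrocyte markers, with a median of -0.12. The part of these lists in the reactive values was not tested. Of 7 meningeal fibroblast markers 6 were higher, with a median of 0.13, and 1 had an unadjusted p under 0.05. Their median deviation was 0.19, -0.019, 0.017 and 0.31 in impaired mice 1 to 4 and -0.15, 0.079, -0.15 and 0.075 in intact mice 1 to 4, and their part in the reactive values was not tested. The tissue was bulk hippocampus, in which fewer astrocytes and less RNA per astrocyte cannot be told apart.

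**Figure D1:**
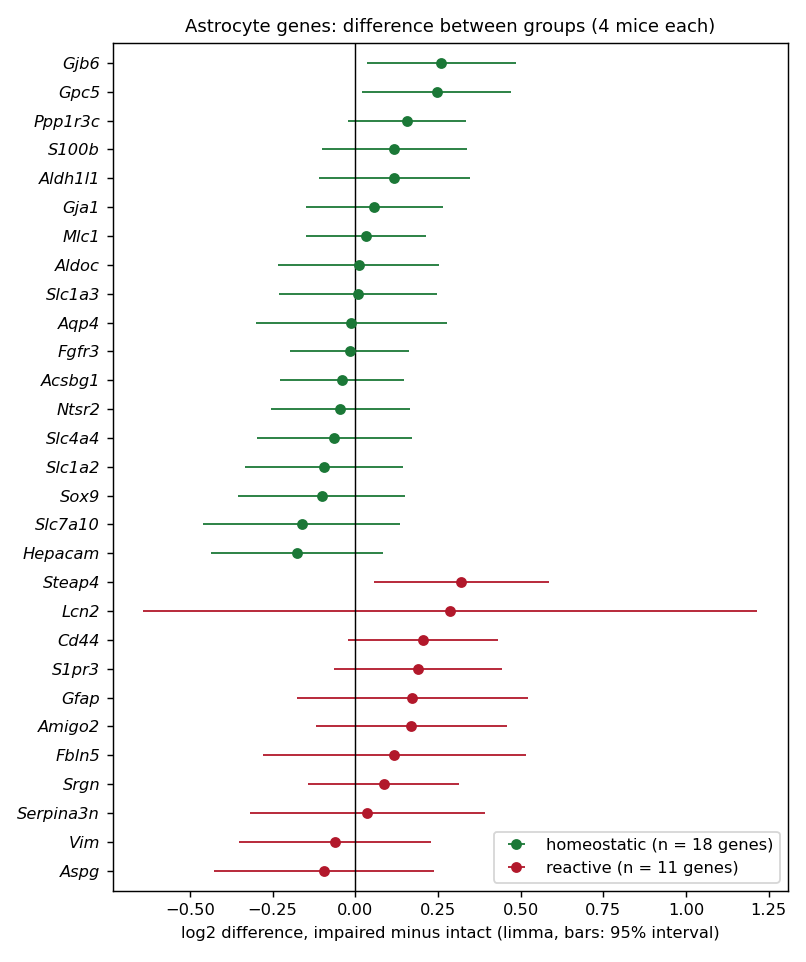
The horizontal axis gives the log2 difference, impaired minus intact, for each of the 29 genes tested (vertical axis), with points for the estimate and bars for the 95% interval from limma, homeostatic genes in green and reactive genes in red. The intervals of Gjb6, Gpc5 and Steap4 lie above 0, those of the other 26 genes include 0, and that of Lcn2 is the widest.

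The upstream sequences of these 3 genes and of Gfap, the filament gene by which reactive astrocytes are most often recognised, are shown to let the bases next to their starts be compared. Each is the 250 bases before the RefSeq gene start in assembly GRCm38.p6, written 5′ to 3′ on the gene's own strand. Capitals mark matches, on either strand, to 3 short motifs: TTCNNNGAA, bound by STAT factors, TTGGCA, a site of nuclear factor I, and TATAAA, the TATA box. The build behind the array's probes is not given in the sources used here, and these sequences are not probe sequences.
Steap4 (chr5:7960222-7960471, plus strand): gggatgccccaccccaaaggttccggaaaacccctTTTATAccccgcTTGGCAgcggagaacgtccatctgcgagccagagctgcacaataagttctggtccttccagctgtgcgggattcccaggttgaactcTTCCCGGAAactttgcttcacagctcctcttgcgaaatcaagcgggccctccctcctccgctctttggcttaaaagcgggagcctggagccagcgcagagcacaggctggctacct
Gpc5 (chr14:115091965-115092214, plus strand): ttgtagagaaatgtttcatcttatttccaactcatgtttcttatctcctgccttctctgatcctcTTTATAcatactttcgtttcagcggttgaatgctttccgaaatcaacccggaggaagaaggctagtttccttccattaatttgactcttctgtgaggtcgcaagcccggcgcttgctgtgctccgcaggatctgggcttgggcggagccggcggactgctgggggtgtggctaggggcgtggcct
Gjb6 (chr14:57133612-57133861, minus strand): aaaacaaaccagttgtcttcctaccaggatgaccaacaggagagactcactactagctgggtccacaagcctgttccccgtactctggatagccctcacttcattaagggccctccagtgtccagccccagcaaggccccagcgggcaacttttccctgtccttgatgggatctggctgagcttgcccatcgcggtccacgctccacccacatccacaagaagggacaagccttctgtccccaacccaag
Gfap (chr11:102897201-102897450, minus strand): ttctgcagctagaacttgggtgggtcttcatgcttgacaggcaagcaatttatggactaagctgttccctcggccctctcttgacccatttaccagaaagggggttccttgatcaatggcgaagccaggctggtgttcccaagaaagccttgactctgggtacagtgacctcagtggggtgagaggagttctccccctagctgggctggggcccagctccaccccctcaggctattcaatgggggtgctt

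The Steap4 window held all 3 motifs: the TATA letters on the opposite strand, the TTGGCA letters after them and the STAT letters nearest to the start. The Gpc5 window held only the TATA letters, on the opposite strand, and those of Gjb6 and Gfap held none of the 3. The STAT letters were found in 7.02% of 32851 such windows of all genes, TTGGCA in 12.3% and TATAAA in 12.4%. Windows were available for 29 of the 31 listed astrocyte genes, 34 in all since some genes have several starts. Each of the 3 motifs was found in 5 of the 34, or 14.7%: the STAT letters in Acsbg1, Aldoc, Ntsr2, Slc1a3 and Steap4, TTGGCA in Aldoc, Hepacam, Lcn2, S100b and Steap4, and TATAAA in Gpc5, Slc1a3, Srgn, Steap4 and Vim. A match describes the letters and is not evidence of binding.

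Of the 7 genes of uptake and metabolism tested, 4 had the higher and 3 the lower mean in the impaired mice, and none passed. Slc1a2, the main glutamate transporter of the forebrain, stood at 11.90, 12.22, 11.998 and 12.37 in impaired mice 1 to 4 and at 12.26, 12.21, 12.28 and 12.12 in intact mice 1 to 4. The impaired mice held both the lowest and the highest of these values and enclosed the intact ones. Its difference was -0.095 (95% interval -0.33 to 0.14, limma, adjusted p = 0.961). Slc1a3, the other astrocytic glutamate transporter, differed by 0.0089 (95% interval -0.23 to 0.25).

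Aldoc, the brain form of the glycolytic enzyme aldolase, stood at 12.66 ± 0.13 (SD, n = 4) in impaired and 12.65 ± 0.19 (SD, n = 4) in intact mice. Acsbg1, which activates long-chain fatty acids, differed by -0.041 (95% interval -0.23 to 0.15). The Aldoc difference was 0.011 (95% interval -0.23 to 0.25). Aldh1l1, a folate enzyme used as a general astrocyte marker, differed by 0.12, and by 0.055 without intact mouse 1. Slc7a10, an exchanger of small amino acids including D-serine, differed by -0.16 (95% interval -0.46 to 0.14), and its values ran over 8.28 to 8.84 in the 8 mice.

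Ppp1r3c, which brings protein phosphatase to glycogen and so favours glycogen synthesis, had the smallest p of this functional group. Its values were 9.47, 9.34, 9.38 and 9.32 in impaired mice 1 to 4 and 9.16, 9.36, 9.14 and 9.22 in intact mice 1 to 4. Intact mouse 2 lay among the impaired values, and the other intact mice lay below all of them. The difference was 0.16 (standard error 0.081), or 1.11-fold (limma, adjusted p = 0.961).

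Of the 4 genes of the endfoot and of ion and volume control, 3 had the lower mean in the impaired mice, and none passed. Aqp4, the water channel of endfeet, stood at 9.49, 9.89, 9.90 and 9.86 in impaired mice 1 to 4 and at 9.85, 9.97, 9.47 and 9.90 in intact mice 1 to 4. Impaired mouse 1 and intact mouse 3 were both far below the other 6 mice, 1 in each group, so that the means differed by -0.012 (95% interval -0.30 to 0.28), a sign that turned under quantile normalization (0.0091). Slc4a4, a sodium bicarbonate cotransporter, differed by -0.064, and Mlc1, a membrane protein of astrocyte junctions that takes part in volume control, by 0.032. Hepacam, the adhesion molecule that partners with Mlc1, had the lowest difference of all 29 genes, -0.18 (95% interval -0.44 to 0.085). It was -0.082 without intact mouse 2 and -0.27 without intact mouse 3. Intact mice 1 and 2 had the highest Hepacam values and intact mouse 3 lay among the lowest, within a span of 9.73 to 10.30.

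Genes of the complex that anchors Aqp4 at the vessel wall were listed apart from the 33. Of 6 measured genes of that complex, 3 were higher and 3 lower, none was called, and the median difference was -0.013. Utrn and Dmd, the related proteins utrophin and dystrophin, had the smallest p of the complex, with differences of -0.099 and -0.078.

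The 2 connexins of astrocyte gap junctions both had the higher mean in the impaired mice, Gja1 not so with the tissue scores as covariates (-0.036). Gja1, the more widely expressed one, stood at 10.31, 10.52, 10.55 and 10.53 in impaired mice 1 to 4 and at 10.28, 10.43, 10.37 and 10.59 in intact mice 1 to 4, a difference of 0.058 (95% interval -0.15 to 0.27). It was 0.012 without intact mouse 1. Its groups overlapped over most of their span, with impaired mouse 1 and intact mouse 1 lowest. Gjb6, whose product appears later in astrocyte maturation, stood at 9.002, 9.33, 9.20 and 8.95 in impaired mice 1 to 4 and at 8.80, 8.94, 8.75 and 8.96 in intact mice 1 to 4. Impaired mice 2 and 3 were the 2 highest of all 8, impaired mice 1 and 4 lay close to intact mice 2 and 4, and intact mice 1 and 3 were lowest. Gjb6 was 1.20-fold higher in the impaired mean, a difference of 0.26 with a standard error of 0.10 (limma, unadjusted p = 0.0279, adjusted p = 0.961). The difference was 0.32 without impaired mouse 4 and 0.19 without impaired mouse 2.

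Of the 5 genes of astrocyte identity and signalling, 2 had the higher and 3 the lower mean, and none passed. Sox9, the transcription factor that marks nearly all adult astrocytes, stood at 9.96, 9.52, 9.75 and 10.01 in impaired mice 1 to 4 and at 9.84, 9.90, 9.83 and 10.06 in intact mice 1 to 4. Impaired mice 2 and 3 were lowest, and the others overlapped. It differed by -0.10 (95% interval -0.35 to 0.15), by -0.0051 without impaired mouse 2 and by -0.026 with the tissue scores as covariates. The fibroblast growth factor receptor Fgfr3 differed by -0.017 and the neurotensin receptor Ntsr2 by -0.045. S100b, a calcium-binding protein that oligodendrocytes also express, differed by 0.12 (95% interval -0.10 to 0.34).

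Gpc5, a heparan sulfate proteoglycan of the cell surface, stood at 7.75, 8.18, 8.05 and 8.04 in impaired mice 1 to 4 and at 7.73, 7.78, 7.65 and 7.88 in intact mice 1 to 4. Impaired mice 2, 3 and 4 lay above every intact mouse, and impaired mouse 1 lay among the intact values. The difference was 0.25 (standard error 0.10, limma, unadjusted p = 0.0351, adjusted p = 0.961), or 1.19-fold, and it was 0.33 without impaired mouse 1.

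Scores of neighbouring tissue are given beside Gjb6 and Gpc5. All 7 markers of hippocampal pyramidal and granule neurons lay above the floor, and so did all 8 of thalamus and all 8 of choroid plexus. The median deviation of 8 thalamus markers from their means over all mice was -0.19, 0.43, 0.46 and -0.014 in impaired mice 1 to 4 and -0.27, 0.46, -1.29 and 0.47 in intact mice 1 to 4. That of the 8 choroid plexus markers was 0.13, -0.36, -0.80 and 0.30 in impaired mice 1 to 4 and 1.04, 0.67, -1.17 and 0.45 in intact mice 1 to 4. Intact mouse 3, lowest in both median scores, also had the lowest Gjb6 and Gpc5. Impaired mice 2 and 3, among the highest in thalamus markers, had the 2 highest values of both genes. Intact mice 2 and 4, also among the highest in thalamus markers, lay below the mean for both. Intact mouse 1, highest in plexus markers and second lowest in thalamus markers, was second lowest for both genes. The part of neighbouring tissue in the values of Gjb6 and Gpc5 was not tested. The covariates in the fit were the means, not the medians, of these deviations over the same markers. With both as covariates, Gjb6 differed by 0.14 (limma, unadjusted p = 0.207) and Gpc5 by 0.15 (unadjusted p = 0.194), in place of 0.26 and 0.25. Both covariates use 2 of the 6 residual degrees of freedom.

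**Figure D2:**
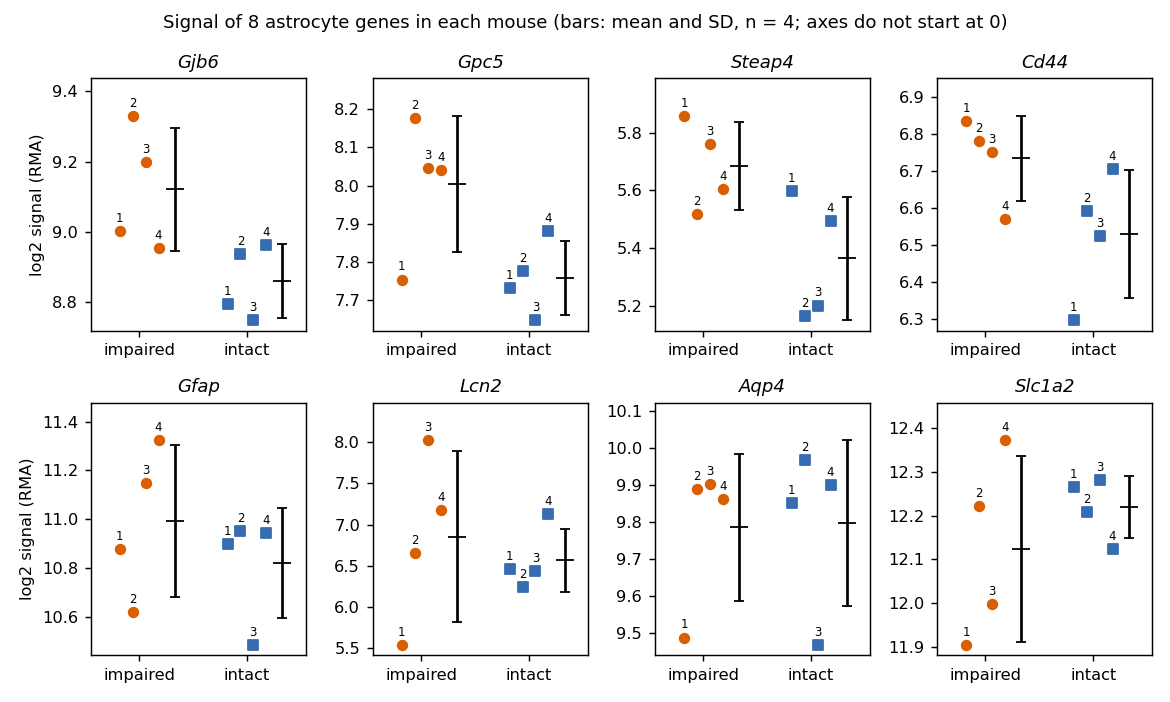
Each panel gives the log2 signal (vertical axis) of 1 gene in the 4 impaired mice (orange circles) and the 4 intact mice (blue squares), with the mouse number above each point and black bars for the mean and SD. The groups overlap in all 8 panels, impaired mouse 1 and intact mouse 3 are lowest for Aqp4, and Lcn2 spans 5.54 to 8.03.

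Other genes enriched in astrocytes were listed apart from the 33. Of 23 measured, 8 were higher and 15 lower in the impaired mice, 0 were called, and the median difference was -0.060. Nfia, a transcription factor that starts the astrocyte programme and is also present in neurons, had the smallest p, with a difference of -0.23 (standard error 0.088, limma, adjusted p = 0.961). Its values were 11.03, 11.001, 11.12 and 11.29 in impaired mice 1 to 4 and 11.42, 11.33, 11.37 and 11.26 in intact mice 1 to 4, so that impaired mouse 4 alone lay within the intact span. Id4, an inhibitor of neurogenic transcription factors, differed by 0.17.

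Of the 9 pan-reactive genes, 8 could be tested, and 6 of them had the higher mean in the impaired mice. Gfap stood at 10.88, 10.62, 11.15 and 11.32 in impaired mice 1 to 4 and at 10.90, 10.95, 10.49 and 10.95 in intact mice 1 to 4. Impaired mice 3 and 4 were highest, impaired mouse 2 was second lowest, and 3 intact mice stood together with intact mouse 3 apart below them. The difference was 0.17 (95% interval -0.18 to 0.52, limma, adjusted p = 0.961), and it was 0.062 without impaired mouse 4 and 0.061 without intact mouse 3.

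Vim, the filament protein that assembles with Gfap, stood at 9.01, 8.88, 9.35 and 9.41 in impaired mice 1 to 4 and at 9.22, 9.41, 9.03 and 9.25 in intact mice 1 to 4. The highest values were those of impaired mouse 4 and intact mouse 2, and impaired mouse 2 was lowest. Its sign was opposite to that of Gfap, with a difference of -0.062 (95% interval -0.35 to 0.23). Among their filament partners Nes, the protein of stem cells and reactive astrocytes, differed by 0.20 (standard error 0.19), by 0.018 without intact mouse 1 and by 0.33 without impaired mouse 2, and Synm by -0.063.

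Serpina3n and Lcn2 code for secreted products of reactive astrocytes. Serpina3n, a serine protease inhibitor with close paralogs in its gene cluster, which leaves the assignment of its signal uncertain, stood at 9.22, 8.94, 9.71 and 9.49 in impaired mice 1 to 4 and at 9.55, 9.40, 9.11 and 9.16 in intact mice 1 to 4. Impaired mouse 3 was highest and impaired mouse 2 lowest, and the means differed by 0.036 (95% interval -0.32 to 0.39). Lcn2, a lipocalin that binds iron-carrying siderophores, stood at 5.54, 6.65, 8.03 and 7.18 in impaired mice 1 to 4 and at 6.45, 6.24, 6.43 and 7.13 in intact mice 1 to 4. Its lowest and its highest value were both in impaired mice, 1 and 3, and its SD within groups, 0.78, was the largest of the 31 genes, beside a median of 0.15 over all genes. The difference of 0.29 (95% interval -0.64 to 1.21) was -0.10 without impaired mouse 3, 0.72 without impaired mouse 1 and -0.26 with the tissue scores as covariates.

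Cd44 and S1pr3 are receptors at the surface of reactive astrocytes. Cd44, the hyaluronan receptor, stood at 6.83, 6.78, 6.75 and 6.57 in impaired mice 1 to 4 and at 6.30, 6.59, 6.52 and 6.71 in intact mice 1 to 4. Impaired mice 1, 2 and 3 lay above all intact mice, and impaired mouse 4 lay below intact mice 2 and 4. Its difference was 0.21 (standard error 0.10, limma, adjusted p = 0.961), and 0.13 without intact mouse 1. S1pr3, a receptor for a sphingosine lipid, stood at 6.91, 6.85, 6.96 and 7.32 in impaired mice 1 to 4 and at 6.74, 6.93, 6.68 and 6.93 in intact mice 1 to 4. It differed by 0.19 (standard error 0.12), and by 0.087 without impaired mouse 4, which had the highest value. Aspg, an asparaginase, differed by -0.094 (standard error 0.15).

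Steap4, which reduces iron and copper at membranes, had the smallest p of the 29 genes. It stood at 5.86, 5.52, 5.76 and 5.60 in impaired mice 1 to 4 and at 5.60, 5.16, 5.20 and 5.49 in intact mice 1 to 4. Intact mice 2 and 3 lay clearly below all impaired mice, whereas intact mice 1 and 4 lay near impaired mice 2 and 4. Steap4 was 1.25-fold higher in the impaired mean, a difference of 0.32 with a standard error of 0.12 (limma, unadjusted p = 0.0219, adjusted p = 0.961). The difference was 0.37 with the thalamus and plexus scores as covariates and 0.21 without impaired mouse 1 and intact mouse 3 together. Its signal was dim: the mean over all mice was under 6.30, the 75th percentile of the array's 5222 intron probe sets, which serve as a background.

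Timp1, an inhibitor of matrix metalloproteinases, was dimmer still and was not tested with the other genes, since its mean lay below the floor of 5.33. It stood at 4.34, 4.93, 5.55 and 4.86 in impaired mice 1 to 4 and at 5.57, 5.38, 5.10 and 5.22 in intact mice 1 to 4. The impaired values enclosed most of the intact ones and the difference was -0.40 in the fit without the filter (limma, adjusted p = 0.963).

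None of the 3 A1 genes tested passed, and all 3 had the higher mean in the impaired mice. Srgn, the core protein of the proteoglycan serglycin, Fbln5, a protein of elastic fibres, and Amigo2, an adhesion molecule, differed by 0.086, 0.12 and 0.17. The Srgn difference was 0.0086 without impaired mouse 3. Fbln5 stood at 7.43, 7.73, 8.03 and 7.61 in impaired mice 1 to 4 and at 7.44, 8.01, 7.15 and 7.72 in intact mice 1 to 4, and its difference was -0.024 without intact mouse 3, the lowest. Amigo2 stood at 7.43, 7.48, 7.67 and 7.38 in impaired mice 1 to 4 and at 6.92, 7.38, 7.49 and 7.50 in intact mice 1 to 4. Without intact mouse 1, by far its lowest value, the Amigo2 difference was 0.037. With the tissue scores as covariates Fbln5 differed by -0.11 and Amigo2 by -0.0045. Gbp2, an interferon-induced GTPase with close paralogs, lay below the floor, at 4.73, 5.28, 5.27 and 4.90 in impaired mice 1 to 4 and at 4.30, 5.30, 4.59 and 4.71 in intact mice 1 to 4. Its difference in the fit without the filter was 0.32 (limma, adjusted p = 0.963).

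Further reactive genes, listed apart from the 33, were mixed. Of 3 other pan-reactive genes tested, Osmr, the receptor of oncostatin M, differed by 0.55 (standard error 0.12, limma, adjusted p = 0.961) and Cp, the copper-carrying ferroxidase ceruloplasmin, by 0.13. All impaired Osmr values lay above all intact ones, but Osmr had been put on its list with its result in these data known. Of 5 other A1 genes 3 were higher and 2 lower, with a median of 0.072, and the 2 with the smallest p, the complement inhibitor Serping1 and the proteasome subunit Psmb8, differed by -0.14 and -0.12. Of 11 A2 genes 8 were higher and 3 lower, with a median of 0.037, among them the membrane proteins Emp1 and Cd109 with 0.17 and 0.13. None of these genes was called.

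The cytokine route that turns astrocytes reactive, through receptors that share Il6st and the transcription factor Stat3, was measured by 9 genes, of which 3 were higher and 6 lower. The oncostatin M receptor Osmr, described above with a difference of 0.55, was on another list and is not among these 9. Il6ra, the receptor subunit for interleukin 6, stood at 6.99, 7.15, 7.27 and 6.99 in impaired mice 1 to 4 and at 6.82, 6.88, 6.77 and 6.94 in intact mice 1 to 4. All impaired values lay above all intact values, by a narrow margin between impaired mouse 1 and intact mouse 4. The groups were separate in either direction for 2.58% of all genes tested. The Il6ra difference was 0.24 (standard error 0.089, limma, unadjusted p = 0.0207, adjusted p = 0.961). Lif, a ligand of this family, differed by 0.28, and Stat3 itself, named here outside the rule for named genes and also on the A2 list, by 0.0065. Il6 and Osm, further ligands, lay below the floor. Of the microglial signals known to induce the A1 state, Il1a and Tnf lay below the floor, and the complement genes C1qa and C1qb differed by 0.14 and 0.058. All impaired Tnf values lay below all intact ones, but each was under the array medians of the intron probe sets, 5.24 to 5.34. Tnf is not among the genes tested, to which the share of 2.58% refers.

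The homeostatic genes were lowest, by their median, in 1 mouse of each group. Of the 18 homeostatic genes, 14 lay below their own mean in impaired mouse 1, which held the lowest value of 5. In intact mouse 3 there were 15 below the mean, 6 of them lowest. Over all genes tested, 16.3% had their lowest value in impaired mouse 1 and 13.4% in intact mouse 3, beside 27.8% and 33.3% of the homeostatic genes. The median deviation of the homeostatic genes was -0.13, 0.073, 0.082 and 0.036 in impaired mice 1 to 4 and -0.035, 0.06, -0.10 and -0.0035 in intact mice 1 to 4. Intact mouse 1 lay below the mean for 12 of the 18 as well. Among the other astrocyte genes 22 of 23 lay below their mean in impaired mouse 1, and 15 of 23 both in impaired mouse 3 and in intact mouse 3.

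Oligodendrocyte markers were low in the same mice. All 7 were under their mean in both of these mice, with median deviations of -0.30, -0.035, 0.19 and -0.033 in impaired mice 1 to 4 and 0.051, 0.26, -0.35 and 0.27 in intact mice 1 to 4. Intact mouse 3 also had the lowest thalamus value. The part that white matter or thalamus in the dissected piece had in these levels was not tested.

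The reactive genes followed a partly different order of mice. Impaired mouse 3 had the highest median deviation for the homeostatic genes too, 0.082, and intact mouse 3 was low there as well, at -0.10. Impaired mouse 3 lay above the mean for all 11 reactive genes and held the highest value of 5. Intact mouse 3 lay below the mean for 9 of these reactive genes and held the lowest value of 4. Their median deviation was -0.029, -0.063, 0.24 and 0.092 in impaired mice 1 to 4 and -0.054, 0.017, -0.21 and 0.038 in intact mice 1 to 4. Impaired mouse 2 was above the mean for most homeostatic genes, 15 of 18, and below it for most reactive genes, 8 of 11. Microglia markers had median deviations of -0.13, -0.053, 0.28 and 0.07 in impaired mice 1 to 4 and of 0.14, 0.063, -0.20 and -0.18 in intact mice 1 to 4. They were thus highest and lowest in the same mice as the reactive genes, whereas intact mouse 4 was nearly as low for microglia markers and above the mean for 7 of the 11 reactive genes. Of the 7 microglia markers, 6 lay above their mean in impaired mouse 3 and 5 below it in intact mouse 3, and their part in the reactive values was not tested.

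**Figure D3:**
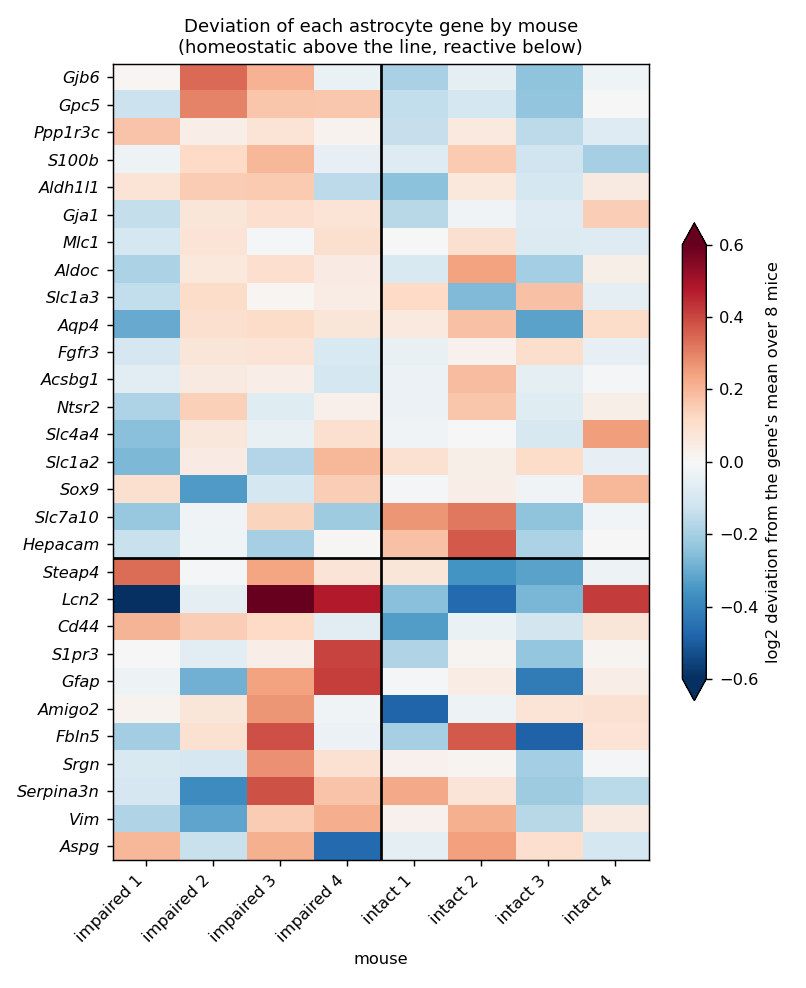
Rows are the 29 genes tested, homeostatic above and reactive below the horizontal line, columns are the 8 mice with the impaired mice left of the vertical line, and colour gives the log2 deviation from the gene's mean over the 8 mice, saturating where the arrows of the colour bar begin. Impaired mouse 1 and intact mouse 3 are mostly blue in the homeostatic rows, and impaired mouse 3 is red in all reactive rows.

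**Figure D4:**
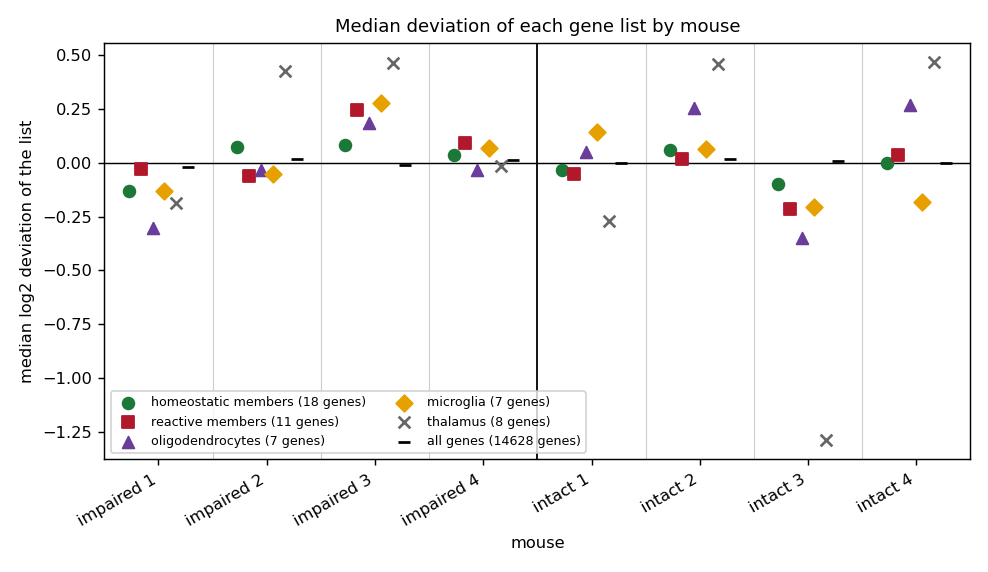
For each mouse on the horizontal axis the symbols give the median log2 deviation of the genes of 1 list from their means over the 8 mice, for homeostatic and reactive genes, oligodendrocyte, microglia and thalamus markers and all genes. The homeostatic median is lowest in impaired mouse 1 (-0.13) and intact mouse 3 (-0.10), and the thalamus median in intact mouse 3 (-1.29).

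The size of a difference that could be seen depended on the gene. The median standard error of a difference was 0.103 for the homeostatic and 0.132 for the reactive genes, beside 0.105 over all genes. For all 18 homeostatic genes the 95% interval stayed within 0.5 on either side, and so did that of 7 of the 11 reactive genes. For 28 of the 29 it stayed within 1, the exception being Lcn2. Of the 31 listed genes, 11 had a mean under 7.92, the 95th percentile of the intron probe sets, 9 of them reactive. On arrays, differences between samples are compressed for probe sets near the background.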

How the data were processed

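Hippocampal RNA of 8 mice was hybridised to 1-colour arrays, 1 a mouse, after amplification from 1 ng of total RNA, per the labels' protocols. The authors deposited log2 values per probe set, made with RMA (background correction, quantile normalization, probe summary) per the submitters' processing notes; neither its version nor a genome build is given in the sources used here. No scan dates or batches were used.

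Of 29129 probe sets, 19572 had 1 gene symbol, for 19505 genes; where a gene had several, the brightest was used. A mean above 5.33 was required, which dropped the dimmest 25%. The remaining 14628 were fitted with limma 3.58.1 in R 4.3.3 (lmFit, eBayes, two-sided, Benjamini-Hochberg over all genes). The fit was also run on simulated arrays in which genes varied independently. That run does not cover effects of tissue or mouse that many genes share. A list's deviation in a mouse is the median over its genes of the value minus the gene's mean over 8 mice. The thalamus and choroid plexus covariates used the mean over the genes in place of the median. All astrocyte genes are named, and of each other list the 2 genes with the smallest p; any gene outside this rule is marked as such or lay below the floor. The genes and lists were chosen with earlier results of these data known. Promoters come from RefSeq. The labels do not say that replicate numbers pair the mice, and the main fit did not treat them as pairs. The samples are biological replicates per the labels' titles, and their number limits the precision.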

Additional observations from a re-analysis of the deposited data

Results flagged for a closer look

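In 4 of the 62 groups of 4 mice examined (31 genes, impaired and intact), 1 mouse stood apart from the other 3 by more than the 95% critical value of Dixon's test, which chance exceeds in about 1 of 20 groups. In the impaired group this was mouse 1, the lowest for Aqp4 at 9.49, against 9.86 to 9.90 in the others, and for Gja1 at 10.31, against 10.52 to 10.55. In the intact group it was mouse 3, the lowest for Gfap at 10.49, against 10.90 to 10.95 in the others, and for Srgn at 9.0, against 9.19 to 9.22. Without impaired mouse 1 the Aqp4 difference was 0.087, and without intact mouse 3 the Gfap difference was 0.061.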

How the results depend on the processing

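No astrocyte gene was called under any of 18 alternatives (filters, priors, scalings, probe set rule, covariates, replicate block, mice left out), and adjusted p over 45 named genes ran from 0.698 to 1.0. A trended, robust prior called 1 gene in all, not one of the 29. The number of the 29 with an unadjusted p under 0.05, 3 as reported, was 1 with thalamus and plexus scores as covariates and 1 without impaired mouse 1 and intact mouse 3, an alternative chosen after seeing the data. It ran from 0 (without impaired mouse 3) to 4 (without intact mouse 4) when 1 mouse was left out. It was 1 without impaired mouse 2, and likewise when intact mouse 1 or 3 was left out. The reactive median was 0.0254 with the covariates and ran from 0.00862 to 0.214 with 1 mouse left out. The homeostatic median stayed between -0.041 and 0.065. With the replicate block, 0 genes were called, 3 of the 29 again had an unadjusted p under 0.05, and 633 genes in all did, in place of 685. Same-numbered mice correlated by -0.10 to 0.033, so the numbers were not read as pairs. The sign of 22 of the 45 genes, none with a difference over 0.29 as reported, turned in 53 of 797 comparisons. With the covariates the differences were -0.085 for Aldoc, -0.0085 for Aldh1l1, -0.036 for Gja1, -0.26 for Lcn2, -0.11 for Fbln5, -0.0045 for Amigo2, -0.052 for Cp, -0.018 for C1qa, -0.16 for C1qb, 0.084 for Dmd and 0.057 for Synm. Quantile normalization gave 0.0091 for Aqp4 and 0.0089 for Fgfr3, and array weights gave -0.025 for Serpina3n. Without both mice named above, Fgfr3 was at 0.045, Psmb8 at 0.024 and C1qa at -0.015. With 1 mouse left out the differences ran from -0.077 to 0.069 for Slc1a3, -0.056 to 0.093 for Aldoc, -0.068 to 0.013 for Acsbg1, -0.12 to 0.087 for Aqp4, -0.11 to 0.0094 for Slc4a4 and -0.048 to 0.014 for Fgfr3. They ran from -0.10 to 0.0098 for Ntsr2, -0.15 to 0.032 for Vim, -0.086 to 0.17 for Serpina3n, -0.10 to 0.72 for Lcn2, -0.18 to 0.045 for Aspg and -0.024 to 0.26 for Fbln5. For the other lists they ran from -0.067 to 0.22 for C1qa, -0.098 to 0.17 for C1qb, -0.18 to 0.035 for Utrn, -0.20 to 0.044 for Dmd and -0.15 to 0.029 for Synm. The cause of these shifts was not tested. The 4 mice a group limit what can be seen.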
